A study of Homo sapiens with 6 samples.

Results

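Eph receptors are the largest family of receptor tyrosine kinases, and they read contact between neighbouring cells. Their ligands, the ephrins, are themselves held on the cell surface, A ephrins by a lipid anchor and B ephrins by a membrane-spanning stretch, so that binding can signal into both cells. EphA receptors mainly bind A ephrins and EphB receptors mainly bind B ephrins, and the pathway is known for sorting cells apart, for repulsion of growing axons and for setting tissue boundaries. The genes described here are 10 receptors of this family, EPHA1, EPHA2, EPHA3, EPHA4, EPHA7, EPHB1, EPHB2, EPHB3, EPHB4 and EPHB6. They were chosen by name from a table of 48183 gene names, and the counts of identifiers that share a name were summed, which gave 12 identifiers for the 10 genes.

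RNA was sequenced in bulk from 6 libraries of human embryonic stem cells carrying EOS, a GFP reporter driven by the distal enhancer of OCT4. The labels name the line H1, whereas the study's methods name H9. All 4 naive libraries came from cells driven out of the primed state, a later stage of pluripotency. The paper's main medium for naive cells is PXGL (the MEK inhibitor PD0325901, the tankyrase inhibitor XAV939, the protein kinase C inhibitor Go6983 and LIF). Its methods keep naive cells on mouse embryonic fibroblast feeders, and it also describes moving CA-p38 cells to feeder-free PXGL. The medium and feeders of each sequenced library are not stated. AICAR, an activator of the kinase AMPK, was used for 2 naive libraries (AICAR 1 and AICAR 2). Valproic acid, a histone deacetylase inhibitor (VPA), was used for 1, and doxycycline-induced, constitutively active p38 kinase (CA-p38) for 1. The paper describes taking away AICAR and doxycycline after induction and growing the cells on in PXGL. It lists all 4 sequenced naive libraries at passages after the days of induction. The step at which VPA was removed is not stated. Both primed libraries were untreated and feeder-free: 1 of the EOS line, parent of the AICAR and VPA cells, and 1 of the CA-p38 EOS line, which was derived from it and carries the inducible p38 construct, parent of the CA-p38 cells. Naive cells had been sorted for the surface antigens CD75 and SUSD2, so the level of SUSD2 is no independent check of their label.

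Total counts ran from 46823699 to 54277064 per library, and a gene with 3 counts stood at 0.0552 to 0.0613 CPM (counts scaled to library size, adjusted by the trimmed mean of M values, TMM). Markers differed as the labels have it. The summed level of 6 naive genes was 1854 to 2155 CPM in naive and 7.67 to 9.88 CPM in primed libraries, and that of 5 primed genes was 30.9 to 42.5 against 2372 to 2904 CPM. The naive sum includes the sorted antigen SUSD2, at 428 to 669 CPM in naive libraries. All 6 naive genes passed as higher in naive cells, so the others differed as well. The summed level of 8 fibroblast genes was 32.3 to 75.3 CPM in naive libraries, highest in the CA-p38 library, and 215 to 228 CPM in primed ones. Of these 8 genes, 5 were lower in naive cells and 3 did not pass the test. Those 3 leaned toward higher in naive cells, with log2 fold changes of 1.22 for COL3A1, 0.87 for DCN and 2.15 for LUM. COL3A1 stood at 16.6 CPM in the CA-p38 naive library, against 4.75 in EOS and 2.19 in CA-p38 EOS primed cells. LUM was at 0 in 2 naive libraries and at 1.17 CPM in CA-p38 naive cells. For 6 neural genes the sums were 2.26 to 3.70 against 14.6 to 15.3 CPM, with 2 genes lower, 1 higher, 2 not passing and 1 not tested. For 4 endoderm genes they were 11.6 to 17.7 against 7.38 to 30.5 CPM (2 lower, 1 higher, 1 not passing), and for 4 trophectoderm genes 11.3 to 13.8 against 3.82 to 4.89 CPM (3 higher, 1 not passing). The primed libraries were feeder-free, so their fibroblast sums do not measure feeder cells. The part of any of these cell types in the Eph values was not tested. In bulk RNA, fewer cells of a type and less RNA per cell cannot be told apart.

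Sequence before the start site is shown for the members on which the comparison turns. These are EPHA2, the receptor that fell furthest, EPHA7, which narrowly passed as higher in naive cells, and EPHB4, which did not pass the test. The bases are from RefSeq on GRCh38.p14, on the strand of the gene and 5′ to 3′, and capitals mark the GC box GGGCGG or its complement CCGCCC. EPHA2 is chr1:16156070-16156319 on the minus strand, EPHA7 is chr6:93419688-93419809 on the minus strand, cut short because other EPHA7 transcripts start inside its window, and EPHB4 is chr7:100827524-100827773 on the minus strand.
EPHA2: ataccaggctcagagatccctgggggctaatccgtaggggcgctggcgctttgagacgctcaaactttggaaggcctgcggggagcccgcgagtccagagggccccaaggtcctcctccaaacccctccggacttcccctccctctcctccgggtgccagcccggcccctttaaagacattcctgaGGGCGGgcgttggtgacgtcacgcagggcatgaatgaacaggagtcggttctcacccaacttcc
EPHA7: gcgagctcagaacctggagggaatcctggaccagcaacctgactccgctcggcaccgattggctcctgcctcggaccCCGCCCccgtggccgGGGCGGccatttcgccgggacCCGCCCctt
EPHB4: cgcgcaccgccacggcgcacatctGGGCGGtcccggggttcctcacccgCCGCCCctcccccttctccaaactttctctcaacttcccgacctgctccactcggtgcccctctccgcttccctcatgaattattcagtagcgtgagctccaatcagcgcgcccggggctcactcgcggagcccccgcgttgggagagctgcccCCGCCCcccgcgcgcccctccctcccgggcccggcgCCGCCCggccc

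The EPHA2 stretch holds 1 GC box, the EPHB4 stretch 4 and the shorter EPHA7 stretch, of 122 bases, 3. The full window of EPHA7, of 250 bases, held 4. Windows of 250 bases before the start were found for all 10 receptors, and 9 of them held a GC box on either strand, against 42.6% of 35116 windows in the RefSeq table. The CCAAT box (CCAAT) was in 7 of 10 windows (32.0% of all windows) and CACCC in 7 of 10 (54.7%). The TATA box (TATAAA) and the E-box (CACGTG) were in 0 of 10 windows, against 10.7% and 6.34% of all windows. GC content had a median of 66.4% over the receptors (48.0% to 84.8%) and 58.0% over all windows, so most of these windows were richer in G and C than the median window, and whether this moves with the GC box counts was not tested. The EPHB6 window lies 7680 bases from the start of the transcript used for its length, and its motifs describe that other start.

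The naive and primed libraries were compared to find which of these receptors differ in RNA level between the states. State goes together here with the earlier induction treatment, culture medium and sorting, and their parts cannot be told apart. The receptors that were lower in naive cells numbered 8, and EPHB4 did not pass the test. EPHA7 was slightly higher and passed only narrowly, and its call did not hold in all alternatives. EPHA2 fell 59.0-fold, EPHB6 15.9-fold and EPHA1 12.0-fold, whereas EPHB4 was 1.11-fold higher. With edgeR's quasi-likelihood test and Benjamini-Hochberg adjustment over 26497 genes, 9 of 10 receptors passed (8 lower, 1 higher). Of all genes tested, 53.1% passed, 27% as lower and 26% as higher in naive cells. The median log2 fold change, naive minus primed, was -2.49 over the receptors and 0.11 over all genes tested. All 10 receptors passed the filter on low counts, and in 10 of 10 all naive libraries were on the same side of the primed pair, which also held for 64.9% of all genes tested. The labels do not say that libraries came from separate cultures, so p-values measure the spread between these libraries, and the naive spread includes differences between induction methods.

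**Figure D1:**
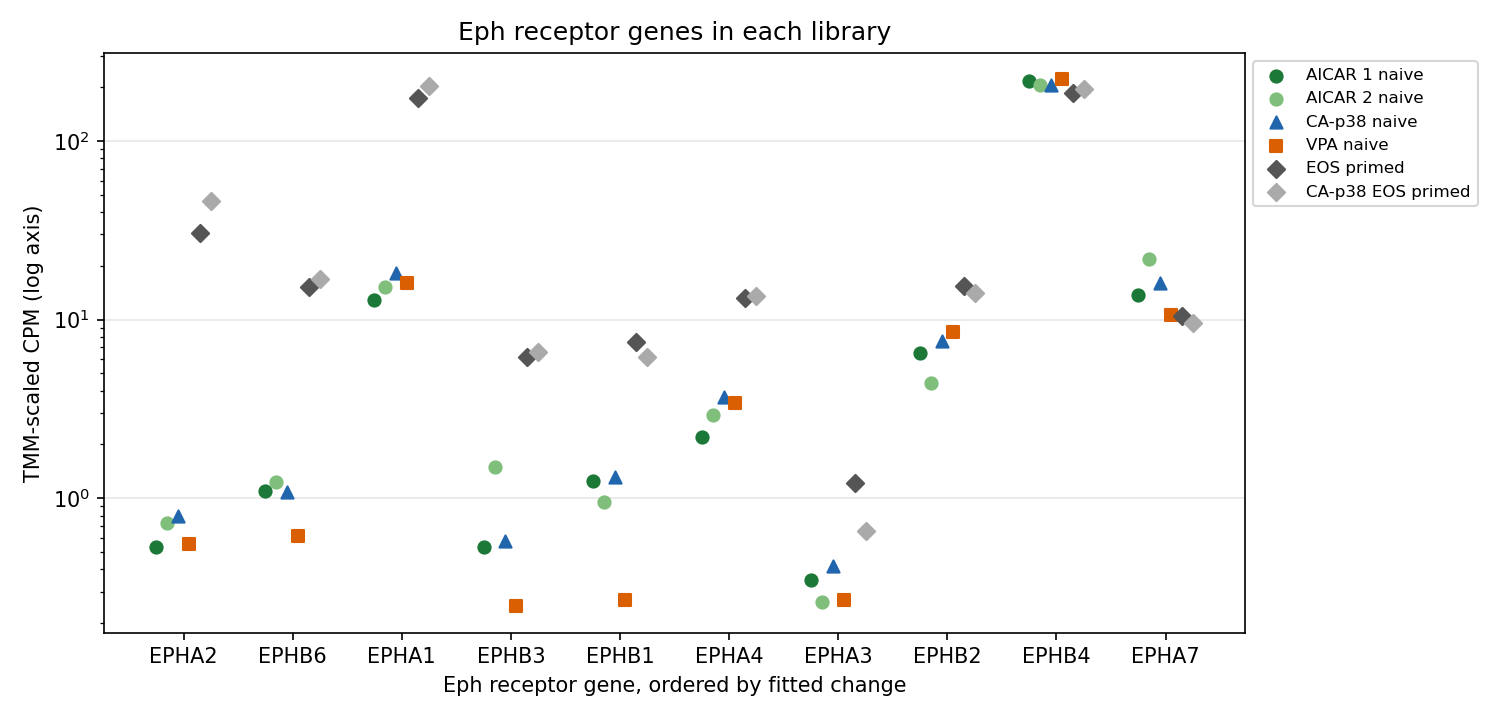
Level of each receptor (TMM-scaled CPM, log axis) in each of the 6 libraries, with 1 point per library and genes ordered by fitted change. The naive points of EPHA2 lie at 0.534 to 0.792 CPM and its primed points at 30.6 and 46.3 CPM, whereas those of EPHB4 lie between 186 and 221 CPM in all libraries.

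Among the A receptors, EPHA2, which is widely present in epithelia and often raised in carcinomas, showed the steepest fall. Its level was 0.554 CPM in VPA, 0.792 in CA-p38, 0.534 in AICAR 1 and 0.725 in AICAR 2 naive cells, and 30.6 in EOS and 46.3 in CA-p38 EOS primed cells. The 4 naive libraries were all close to each other and far below both primed libraries, of which CA-p38 EOS was the higher. The means were 0.651 ± 0.127 CPM (SD, n = 4) and 38.4 ± 11.1 CPM (SD, n = 2), and the log2 fold change was -5.88 (SE 0.23, edgeR adjusted p = 4.68e-10). The naive libraries held 29 to 40 reads of the gene, against 1515 and 2263 in primed libraries, so it was low but not absent. The gene spans chr1:16124337-16156069 (GRCh38, GENCODE release 44).

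EPHA1, the founding member of the family, had a higher level per transcript length than EPHA2 in every library. It stood at 16.0 CPM in VPA, 18.2 in CA-p38, 12.9 in AICAR 1 and 15.3 in AICAR 2 naive cells, and at 174 in EOS and 202 in CA-p38 EOS primed cells. The groups were far apart and each was narrow. The means were 15.6 ± 2.21 CPM (SD, n = 4) and 188 ± 19.8 CPM (SD, n = 2), with a log2 fold change of -3.59 (SE 0.13, edgeR adjusted p = 3.50e-10). EPHA1 lies at chr7:143390289-143408856 and is counted under a pair of identifiers, ENSG00000146904 and ENSG00000284816, the former with 49.8% to 52.3% of its counts. The antisense transcript EPHA1-AS1, which shares no exon base with the EPHA1 transcript used here, was also lower in naive cells, at 0.906 to 1.53 against 5.93 to 6.81 CPM (log2 fold change -2.38, SE 0.28, edgeR adjusted p = 1.00e-05).

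EPHA4, which binds both A and B ephrins, stood at 3.40 CPM in VPA, 3.70 in CA-p38, 2.19 in AICAR 1 and 2.94 in AICAR 2 naive cells, and at 13.2 in EOS and 13.6 in CA-p38 EOS primed cells. AICAR 1 was the lowest library, and no naive library came near the primed pair. The log2 fold change was -2.13 (SE 0.23, edgeR adjusted p = 5.34e-06) and the gene is at chr2:221418027-221574202. EPHA3, a receptor with high affinity for ephrin-A5, was the least abundant of the 10 per transcript length. Its level was 0.267 CPM in VPA, 0.416 in CA-p38, 0.350 in AICAR 1 and 0.262 in AICAR 2 naive cells, and 1.21 in EOS and 0.654 in CA-p38 EOS primed cells. These are 13 to 21 reads in naive and 32 and 60 reads in primed libraries, and the primed libraries differed from each other more than the naive ones did. Its log2 fold change was -1.52 (SE 0.50, edgeR adjusted p = 0.0213). Without the EOS primed library EPHA3 no longer passed (-1.02, adjusted p = 0.292, range over all alternatives 0.00671 to 0.292). The gene is at chr3:89107621-89482134.

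EPHA7, an A receptor known from neural tube closure and the cerebral cortex, went against the other listed A receptors. EPHA10, an A receptor outside the list, was also higher in naive cells (log2 fold change 1.04). EPHA7 stood at 10.6 CPM in VPA, 16.0 in CA-p38, 13.8 in AICAR 1 and 21.7 in AICAR 2 naive cells, and at 10.5 in EOS and 9.63 in CA-p38 EOS primed cells. The VPA library was nearly level with the EOS primed library, and AICAR 2 was the highest. The means were 15.5 ± 4.67 CPM (SD, n = 4) and 10.1 ± 0.621 CPM (SD, n = 2), a 1.54-fold difference with a log2 fold change of 0.62 (SE 0.25, edgeR adjusted p = 0.0486). With the parental line as a replicate block it was 0.62 with adjusted p = 0.0654. It no longer passed without CA-p38 naive (adjusted p = 0.0921), AICAR 1 (0.0578), AICAR 2 (0.42, adjusted p = 0.116), EOS primed (0.129) or CA-p38 EOS primed (0.197), and without VPA it was 0.75 with adjusted p = 0.00933. The gene is at chr6:93240020-93419687.

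Among the B receptors, EPHB4, the main receptor of ephrin-B2 in veins, had the highest naive level per transcript length and the smallest change. It stood at 221 CPM in VPA, 205.1 in CA-p38, 216 in AICAR 1 and 205.3 in AICAR 2 naive cells, and at 186 in EOS and 197 in CA-p38 EOS primed cells. Every naive library was above both primed libraries, but by a small margin. The means were 212 ± 8.18 CPM (SD, n = 4) and 191 ± 7.54 CPM (SD, n = 2), with a log2 fold change of 0.15 (SE 0.093, edgeR adjusted p = 0.201). Scaled by library totals it was 0.25 and passed (adjusted p = 0.0263, range over all alternatives 0.0263 to 0.557), and that scaling moved the median of all genes from 0.11 to 0.20. The gene is at chr7:100802565-100827523, and 69 bases of its transcript overlap exons of SLC12A9 on the other strand.

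EPHB6, whose kinase domain is catalytically inactive, fell most among the B receptors. It stood at 0.611 CPM in VPA, 1.09 in CA-p38, 1.10 in AICAR 1 and 1.23 in AICAR 2 naive cells, and at 15.2 in EOS and 16.9 in CA-p38 EOS primed cells. VPA was the lowest library and the groups lay far apart. The naive libraries held 32 to 61 reads of the gene, against 751 and 828 in primed libraries. The means were 1.01 ± 0.272 CPM (SD, n = 4) and 16.1 ± 1.24 CPM (SD, n = 2), with a log2 fold change of -3.99 (SE 0.26, edgeR adjusted p = 5.26e-08). EPHB6 is at chr7:142855061-142871094, 519 kb from EPHA1, and its counts are split over ENSG00000106123, with 38.3% to 59.4% of them, and ENSG00000275482.

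EPHB1, EPHB2 and EPHB3 are B receptors best known from axon guidance and, for EPHB2 and EPHB3, from the ordering of cells along the intestinal crypt. EPHB3 stood at 0.248 CPM in VPA, 0.574 in CA-p38, 0.534 in AICAR 1 and 1.49 in AICAR 2 naive cells, and at 6.16 in EOS and 6.56 in CA-p38 EOS primed cells. The AICAR libraries differed from each other here, and the naive spread was wide against its mean (0.712 ± 0.539 CPM, SD, n = 4). The log2 fold change was -3.16 (SE 0.48, edgeR adjusted p = 9.81e-05), and without AICAR 2 it was -3.80.

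EPHB1 stood at 0.267 CPM in VPA, 1.31 in CA-p38, 1.25 in AICAR 1 and 0.946 in AICAR 2 naive cells, and at 7.46 in EOS and 6.18 in CA-p38 EOS primed cells, with VPA apart at the low end. Its log2 fold change was -2.85 (SE 0.43, edgeR adjusted p = 0.000103). The transcript shares 346 bases, 7.40% of its length, with exons of a noncoding RNA, ENSG00000288700, on its own strand. EPHB2 stood at 8.50 CPM in VPA, 7.58 in CA-p38, 6.52 in AICAR 1 and 4.39 in AICAR 2 naive cells, and at 15.4 in EOS and 14.0 in CA-p38 EOS primed cells. For EPHB2 the VPA library was the highest naive library, unlike in EPHB1, EPHB3 and EPHB6. Its change was the smallest of the 8 receptors that fell, at -1.12 on the log2 scale (SE 0.24, edgeR adjusted p = 0.00141). EPHB1 is at chr3:134795260-135260467, EPHB2 at chr1:22710839-22921500 and EPHB3 at chr3:184561785-184582408.

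**Figure D2:**
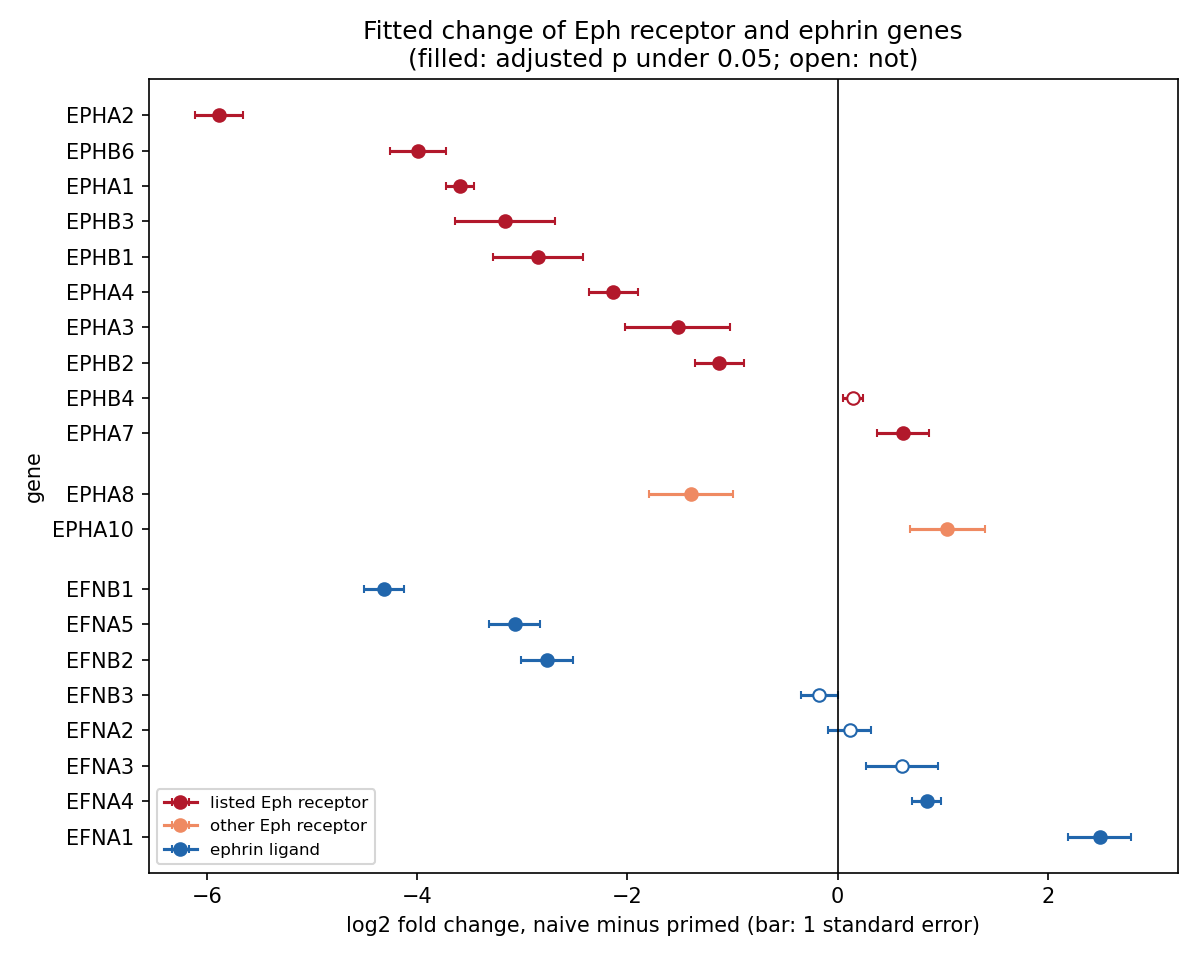
Fitted log2 fold change, naive minus primed, of the 10 receptors, of 2 other Eph receptors and of the 8 ephrin ligands, with bars of 1 standard error and filled points where adjusted p was under 0.05. The receptors run from -5.88 for EPHA2 to 0.62 for EPHA7, and the ephrins from -4.32 for EFNB1 to 2.49 for EFNA1. EPHA6 is left out because its naive libraries were at the floor.

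Levels of different receptors were compared per kilobase of the canonical transcript. In naive cells EPHB4 was first at 48.7 CPM per kb, followed by EPHA1 at 4.72, EPHA7 at 2.34, EPHB2 at 0.611, EPHA4 at 0.481, EPHB6 at 0.252, EPHB1 at 0.202, EPHB3 at 0.168, EPHA2 at 0.165 and EPHA3 at 0.0567. The ranges over libraries overlapped between EPHB2 and EPHA4, and between each neighbour from EPHB6 to EPHA2, so the order within those runs is not resolved. In primed cells EPHA1 was first at 56.8 CPM per kb, ahead of EPHB4 at 43.9, EPHA2 at 9.74, EPHB6 at 4.01, EPHA4 at 2.11, EPHA7 at 1.52, EPHB3 at 1.50, EPHB1 at 1.46, EPHB2 at 1.33 and EPHA3 at 0.163. Neighbours from EPHA7 to EPHB2 overlapped there. With the longest transcript as the length, the primed ranks of these 4 genes changed and no naive rank did.

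EPHB4 made up most of the summed per-length level of the 10 receptors in naive cells. Its share was 86.1% in VPA, 82.3% in CA-p38, 86.5% in AICAR 1 and 82.7% in AICAR 2, against 37.1% in EOS and 34.7% in CA-p38 EOS primed cells. EPHA1 held 6.77% to 9.62% in naive and 45.6% and 46.9% in primed cells. The share of EPHA2 was 0.235% to 0.350% in naive and 6.74% and 9.02% in primed cells. The summed level itself was 57.0 to 59.1 CPM per kb in naive and 115 and 130 CPM per kb in primed libraries. These shares restate the levels above, since a share of a sum rises when the rest of the sum falls.

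**Figure D3:**
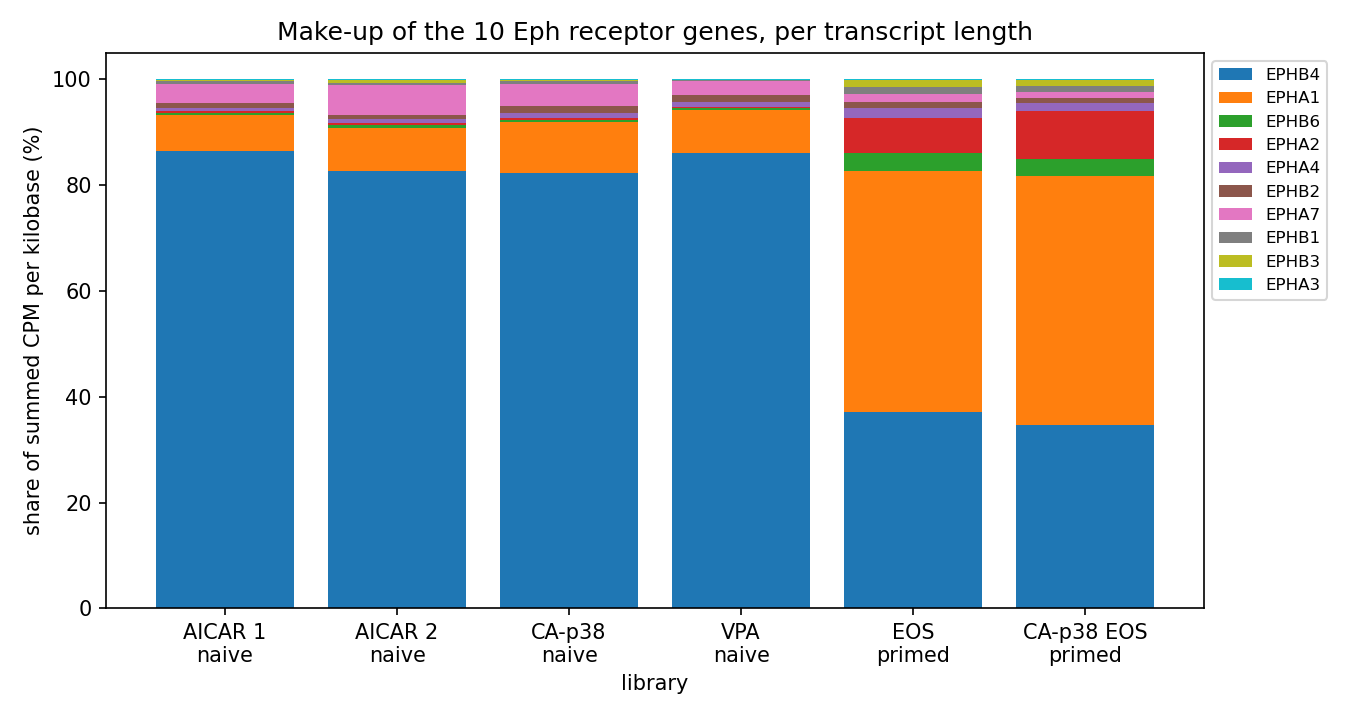
Share of the summed per-length level (percent, from 0) taken by each receptor in each of the 6 libraries. EPHB4 takes 82.3% to 86.5% in naive libraries and 34.7% and 37.1% in primed libraries, where EPHA1 takes 45.6% and 46.9%.

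Each naive library was also set against its own parental primed library, the EOS line for AICAR and VPA and the CA-p38 EOS line for CA-p38. There is 1 library on each side, so these are ratios of 2 libraries without a test, and the 95% Clopper-Pearson intervals cover counting error only. EPHA2 was lower in each naive library, by 55.3-fold in VPA (38.3 to 82.8), 58.4-fold in CA-p38 (42.8 to 82.0), 57.4-fold in AICAR 1 (39.8 to 85.9) and 42.2-fold in AICAR 2 (30.4 to 60.5). All 4 intervals overlap. EPHA1 was 10.8-fold to 13.5-fold lower.

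Among the 10 receptors, the ratios of EPHB1 and EPHB3 spread most between naive libraries, and those of EPHB4 least. EPHB1 was 27.9-fold lower in VPA (16.4 to 51.5), on 14 reads, and 4.73-fold, 5.96-fold and 7.88-fold lower in CA-p38, AICAR 1 and AICAR 2, so the VPA interval did not meet the others. EPHB3 was 24.8-fold lower in VPA (14.3 to 47.1) and 4.14-fold lower in AICAR 2 (3.20 to 5.41), with CA-p38 and AICAR 1 between them at 11.4-fold and 11.5-fold. The AICAR libraries, which share a method and a parental line, differed in EPHB3 by more than counting error, so libraries of a single method also varied. EPHB6 was 24.8-fold lower in VPA (17.4 to 36.6) and 12.4-fold to 15.6-fold lower in the other naive libraries. EPHA7 was 1.01-fold its parental level in VPA (0.895 to 1.14), 1.66-fold in CA-p38, 1.31-fold in AICAR 1 and 2.07-fold in AICAR 2 (1.86 to 2.30). In EPHA3 the CA-p38 ratio, 1.57-fold lower (0.880 to 2.87), was the only ratio of that gene with an interval that covers 1.

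**Figure D4:**
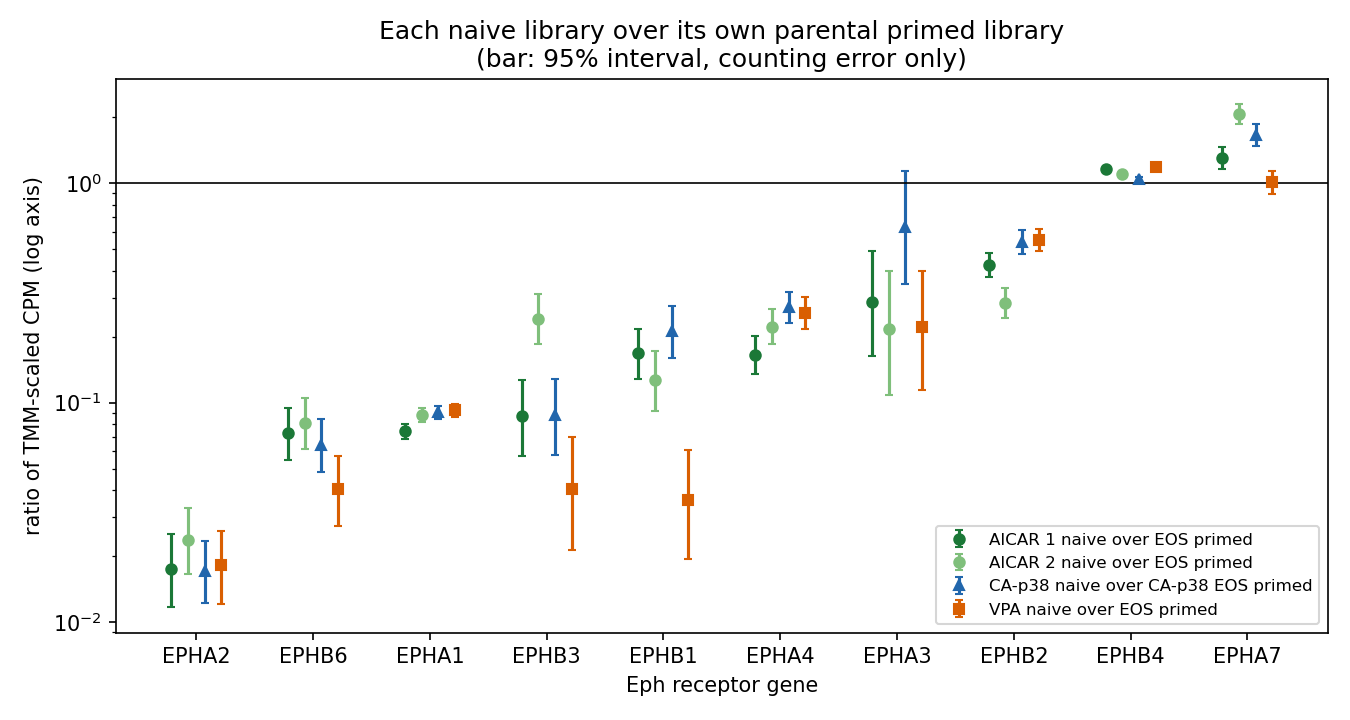
Ratio of TMM-scaled CPM of each naive library to its own parental primed library (log axis) for the 10 receptors, with 1 point per naive library and bars of the 95% Clopper-Pearson interval of the counts. The EPHA2 points lie together at the low end, whereas the VPA points of EPHB1 and EPHB3 lie below the other naive libraries.

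Whether the naive change differs between the CA-p38 EOS line and the EOS line was asked with a state-by-line interaction, in which the line goes together with the induction method and the CA-p38 side has 1 library per state. No receptor passed in edgeR (0 of 10) or in limma-voom (0 of 10), 0 of 10 had an unadjusted p under 0.05 in edgeR, and 0.00377% of all genes tested (1 gene) passed. The fitted differences, CA-p38 EOS line minus EOS line, ran from -0.48 on the log2 scale for EPHB3 (SE 1.18) to 1.39 for EPHA3 (SE 1.14). The standard errors were smallest for EPHB4 (0.20), the receptor with the most naive reads, and 2 residual degrees of freedom were left, which limits what this test can detect. Of the other Eph receptors and ephrins, 0 of 11 passed, and 2 (EFNA3 and EFNB1) had an unadjusted p under 0.05, as did 853 of all 26497 genes tested.

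Ligands were lower, higher or did not pass in naive cells. Of the 8 ephrins and 4 other Eph receptors, 11 could be tested, 5 were lower in naive cells, 3 were higher and 3 did not pass, beside 53.1% of all genes that passed. Their median log2 fold change was -0.17, and the groups did not overlap for 8 of the 11, beside 64.9% of all genes tested. Whether either count differs from that of all genes was not tested. Of the 3 B ephrins, ligands of EphB receptors, EFNB1 and EFNB2 fell and EFNB3 did not pass. EFNB1 stood at 2.81 CPM in VPA, 1.88 in CA-p38, 2.36 in AICAR 1 and 2.28 in AICAR 2 naive cells, and at 39.0 in EOS and 54.1 in CA-p38 EOS primed cells (log2 fold change -4.32, SE 0.19, edgeR adjusted p = 1.30e-09). EFNB2 stood at 3.88, 4.51, 4.71 and 8.44 CPM in the same order of naive libraries and at 34.8 and 38.2 CPM in primed cells (-2.76, SE 0.25, edgeR adjusted p = 9.47e-07). EFNB3 was 10.6 ± 1.16 CPM (SD, n = 4) against 11.9 ± 1.14 CPM (SD, n = 2), and its groups overlapped (-0.17, SE 0.18, edgeR adjusted p = 0.445). EFNB1 fell 19.9-fold and EFNB2 6.78-fold. The B receptors EPHB1, EPHB2, EPHB3 and EPHB6 were lower in naive cells as well, whereas EPHB4 and EFNB3 did not pass.

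The A ephrins went both ways. EFNA1, a ligand of EPHA2 and EPHA1, was 6.25 ± 1.22 CPM (SD, n = 4) in naive cells against 1.11 ± 0.0339 CPM (SD, n = 2) (log2 fold change 2.49, SE 0.30, edgeR adjusted p = 1.27e-05). Its 4 naive libraries, at 4.76 to 7.67 CPM, were all above both primed libraries. EFNA4 was 23.7 ± 0.632 against 13.2 ± 0.322 CPM (0.85, SE 0.14, edgeR adjusted p = 0.000221), also without overlap. EFNA5, a ligand with broad binding that includes EPHA3 and EPHA7, went the other way at 1.22 ± 0.204 against 10.3 ± 0.820 CPM (-3.07, SE 0.24, edgeR adjusted p = 3.09e-07). EFNA2 was 11.0 ± 1.59 against 10.1 ± 2.26 CPM (0.12, SE 0.21, edgeR adjusted p = 0.658). EFNA3 was 8.12 ± 1.10 against 5.30 ± 3.71 CPM (0.62, SE 0.35, edgeR adjusted p = 0.153), where the primed libraries stood apart at 7.92 in EOS and 2.68 CPM in CA-p38 EOS. Without the EOS primed library EFNA3 passed (1.59, edgeR adjusted p = 0.00169), and without the CA-p38 EOS primed library it was 0.043. EFNA3 and EFNA4 are neighbours joined by a read-through transcript, so their reads may not be separable.

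The other Eph receptors were low. EPHA6 had 2, 0, 0 and 1 reads in the naive libraries and 31 and 22 reads in the primed ones, so against a floor of 3 counts per library it was at least 9.28-fold lower in naive cells (edgeR adjusted p = 0.000889). EPHA8, which lies 107 kb from EPHB2, was 0.732 ± 0.290 CPM (SD, n = 4) against 1.93 ± 0.386 CPM (SD, n = 2), with a log2 fold change of -1.39 (SE 0.40, edgeR adjusted p = 0.0107). EPHA10, whose kinase domain is inactive like that of EPHB6, was 2.04 ± 0.254 against 0.987 ± 0.368 CPM (1.04, SE 0.36, edgeR adjusted p = 0.0254). Calls for both rested on single libraries: EPHA8 did not pass without EOS primed (edgeR adjusted p = 0.101), and EPHA10 did not pass without AICAR 1 (0.0571) or without EOS primed (0.220). EPHA5 did not reach the filter, with 0 to 7 reads in naive and 5 and 26 reads in primed libraries.

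Of 33 signalling partners, such as exchange factors, adaptors, kinases and proteases that act with Eph receptors or ephrins, 17 were lower in naive cells, 8 were higher and 8 did not pass. Their median log2 fold change was -0.40, and 29 of 33 did not overlap between groups. Of all genes tested, 27% were lower, 26% were higher and 64.9% did not overlap. Within a family of exchange factors the members moved apart: VAV3 fell from 19.6 ± 1.31 CPM (SD, n = 2) in primed to 1.07 ± 0.309 CPM (SD, n = 4) in naive cells (log2 fold change -4.19, SE 0.25, edgeR adjusted p = 1.78e-08), whereas VAV2 rose from 59.7 ± 2.19 to 199 ± 14.9 CPM (1.74, SE 0.11, edgeR adjusted p = 4.32e-08). NGEF, or ephexin, an exchange factor bound by EphA receptors, rose from 1.63 ± 0.374 to 27.5 ± 3.32 CPM (4.07, SE 0.22, edgeR adjusted p = 7.68e-09). Its naive libraries, from 25.1 to 32.3 CPM, lay far above both primed libraries. GRIP1, a scaffold that binds the tails of B ephrins and EphB receptors, was 0.382 CPM in VPA, 1.84 in CA-p38, 1.84 in AICAR 1 and 1.93 in AICAR 2, against 13.5 and 12.7 CPM in primed cells (-3.13, SE 0.42, edgeR adjusted p = 3.63e-05). SIPA1L1, a GTPase-activating protein of Rap, fell from 128 ± 8.51 to 34.5 ± 3.63 CPM (-1.89, SE 0.12, edgeR adjusted p = 3.05e-08), and GRB7, an adaptor, rose from 15.1 ± 1.20 to 35.3 ± 2.67 CPM (1.23, SE 0.14, edgeR adjusted p = 9.10e-06).

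Patterns over the 6 libraries were compared by Euclidean distance of centred log2 values, taken of CPM plus 0.5. Among 12603 genes, those with the pattern most like that of a receptor were found. For EPHA2 they were TNC (distance 0.40), COL2A1 (0.41) and HTR7 (0.47), with log2 fold changes of -6.07, -6.74 and -7.12. For EPHA7 they were SETD7 (0.34), ZNF605 (0.36) and SMG1P1 (0.38), with log2 fold changes of 0.57, 0.48 and 0.67. These distances over 6 libraries mainly reflect the size of the difference between states on that scale and describe nothing more. Adding 0.5 CPM compresses low values, and EPHA2 stood at 0.534 to 0.792 CPM in naive cells. Its neighbours can thus lie close to it although their fitted log2 fold changes are larger in size than -5.88.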

How the data were processed

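The authors trimmed reads with cutadapt 1.15 through Trim Galore 0.4.4, mapped them with Bowtie2 to Ensembl GRCh38 cDNA and noncoding RNA and deposited whole-number counts per gene identifier, without normalization. Libraries were made from polyadenylated RNA with a stranded kit, and use of the strand in counting is not given in the sources used here. Of 61222 features, 26 spike-in sequences were left out, and the remaining 61196 identifiers were summed by name to 48183 genes, of which 6932 held more than 1 identifier. The table also has 23 columns of other series, which were not used. Library totals are given with the results.

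Groups came from the labels (4 naive, 2 primed libraries). The AICAR libraries differed from each other about as much as other naive pairs (chi-square per gene 21.1, others 19.8 to 35.9) and were counted separately. The paper lists them at consecutive passages, and the chi-square cannot show whether they came from separate cultures. Counts were tested with edgeR 4.0.16 in R 4.3.3 (quasi-likelihood test, TMM scaling, filterByExpr by state, Benjamini-Hochberg adjustment over all genes tested, threshold 0.05). The interaction used state and parental line. The naive cells and their own parental line pair the libraries, so a fit with that line as a replicate block was an alternative. The test code was checked on simulated counts. Ratios to the parental library carry exact binomial intervals. With 4 and 2 libraries, exact permutation could give no p below 0.0667, so none was used. Lengths, positions and overlaps came from GENCODE release 44, and sequences from RefSeq. Other steps ran in Python 3.11.15 (pandas 2.3.3, numpy 2.4.6, matplotlib 3.10.9, scipy 1.17.1).

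Alternatives were DESeq2's size factors or library totals for scaling, DESeq2 1.42.0 and limma-voom (limma 3.58.1) for the test, a filter of 1 count in any library and a filter of 10 counts in each library, the replicate block, AICAR libraries summed, the identifier with the highest count, and each library left out. The longest transcript as gene length was added after seeing the data. Named were all 10 receptors, every other Eph receptor and ephrin that was tested, and the 3 highest and 3 lowest partners among those that passed and averaged 5 CPM or more. EPHA5 and EPHA1-AS1 were added after their values were seen. The nearest patterns are for the receptors with the highest and the lowest change past the threshold. The receptors and all gene lists were chosen with earlier results of these data known.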

Additional observations from a re-analysis of the deposited data

Results flagged for a closer look

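Among 28 genes examined (receptors, ephrins and named partners), 3 had a naive library whose gap to the nearest other naive library exceeded Dixon's 95% critical value, as a part of the group's range. Chance flags about 1 in 20 groups. EPHA5, which was too low to be tested, was highest in AICAR 1 at 0.129 CPM, on 7 reads. VAV3 was highest in VPA naive cells at 1.53 CPM, and GRIP1 was lowest in VPA naive cells at 0.382 CPM. None of the 10 receptors met this limit in the naive libraries, and the primed group is too small for it.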

How the results depend on the processing

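The count of receptors that passed ran from 7 (without the EOS primed library) to 10 (library totals), with 9 as reported. Over all alternatives, 139 of the receptors' fold changes kept their direction and their side of the threshold, 10 no longer passed, namely EPHA7 in 9 and EPHA3 in 1, and 1 newly passed, EPHB4 with library totals. EPHA7 also failed with DESeq2's size factors (adjusted p = 0.0674), limma-voom (0.0696) and AICAR libraries summed (0.0578). The parental line as a replicate block changed no other call of a receptor. EFNA2 turned to -0.088 without the CA-p38 EOS primed library (-0.088 to 0.35 over libraries left out). Interactions near 0 changed sign: with a library left out, EPHA1 ran from -0.00078 to 0.16, EPHA7 from -0.023 to 0.51, EPHB3 from -0.90 to 0.46 and EPHB6 from -0.25 to 0.18, and EPHB6 was 0.039 with library totals, 0.012 with the filter of 10 counts in each library, 0.055 with limma-voom and 0.42 with the identifier of the highest count. The cause was not tested. Leaving out a primed library leaves 1, which is assumed to vary like the naive ones. EPHA3, EPHB1, EPHB3, EPHA2 and EPHB6 rest on 13 to 74 reads in naive libraries, which limits their precision.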
